A study of Arabidopsis thaliana with 9 samples.

Results

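The genes described here were those read at a lower level in both Arabidopsis K36M leaf libraries than in both WT leaf libraries. Genes were chosen by their RNA level in the same 4 libraries, and a gene was taken if its mean was at least 1 FPKM, fragments per kilobase of a gene after scaling by library size, over the 4 libraries. Its lower WT value also had to exceed its higher K36M value by at least 1 on the log2(FPKM + 1) scale, a difference called the gap below. The rule was met by 163 of 17738 features tested, or 0.919%, of 33302 in the table. After 16 of these were left out by name, PR1, CRTISO and GSTF2 among them, 147 genes remained. Pairs of values below give replicate 1 before replicate 2, with WT before K36M. Because the rule used all 4 libraries of the only contrast, every difference between WT and K36M below is a description, with no test.

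Leaf RNA was taken from Arabidopsis thaliana of the Columbia-0 background at the age of 21 days, grown in soil at 23 degrees C with 16 h of light and 8 h of dark. All plants of both groups had a transgene of HTR5 (AT4G40040), which encodes a histone H3, beside their own H3 genes. The transgene was unmutated in the 2 libraries called WT and carried the K36M change, lysine 36 to methionine, in the 2 libraries called K36M. Libraries of a group are labelled as biological duplicates. The labels used here do not give the promoter of the insert, the number of lines or how many plants were pooled for RNA. The H3K36me3 chromatin libraries of 5 genotypes in the series were not analysed here.

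Lysine 36 of histone H3 is trimethylated over the bodies of transcribed genes, in Arabidopsis mainly by the methyltransferase SDG8. Histones with methionine in place of the lysine are known to interfere with methyltransferases of the same site. SDG8 is known for keeping up the expression of flowering repressors of the FLC family and for a part in immunity. Salicylic acid immunity starts at receptors on the cell surface and inside the cell. It passes through kinases and through EDS1 and PAD4 to salicylic acid synthesis, and ends in secreted defence proteins.

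The FPKM of a library summed to between 756076 and 1406621 once AT2G01021 was set aside, a short gene model that held 1.39% to 34.6% of the full sums. WT replicate 1 stood apart. Across tested features its Pearson r to the other libraries was 0.821 to 0.834, against 0.937 to 0.950 among the other 3. HTR5 had 322 and 711 FPKM in WT against 391 and 582 FPKM in K36M, and FPKM per gene does not separate the inserted copy from the endogenous one. Leaf markers were abundant in every library, with 6 mesophyll and photosynthesis genes summing to 50841 and 126945 FPKM in WT against 61215 and 75859 FPKM in K36M. The 8 meristem and flower markers summed to 1.63 and 15.4 FPKM in WT against 27.5 and 31.5 FPKM in K36M, of which AP3 had values of 0 in WT. Bulk RNA does not tell fewer cells of a type from less RNA per cell, and the part of either in the results below was not tested.

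The median level of the 147 genes was 26.2 and 10.9 FPKM in WT replicates 1 and 2 and 2.69 and 2.98 FPKM in K36M replicates 1 and 2. Over all tested features the medians were 9.6, 9.1, 8.04 and 9.21 FPKM. The median of the 147 genes was above that of all tested features in both WT libraries and below it in both K36M libraries. The rule favours this order, so nothing is read from it. Their median log2 difference, K36M minus WT, was -2.12, against -0.05 over all features tested. The gap ran from 1.00 to 6.06 with a median of 1.3. It was between 1 and 1.5 in 99 genes, between 1.5 and 2 in 31 and at least 2 in 17.

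**Figure D1:**
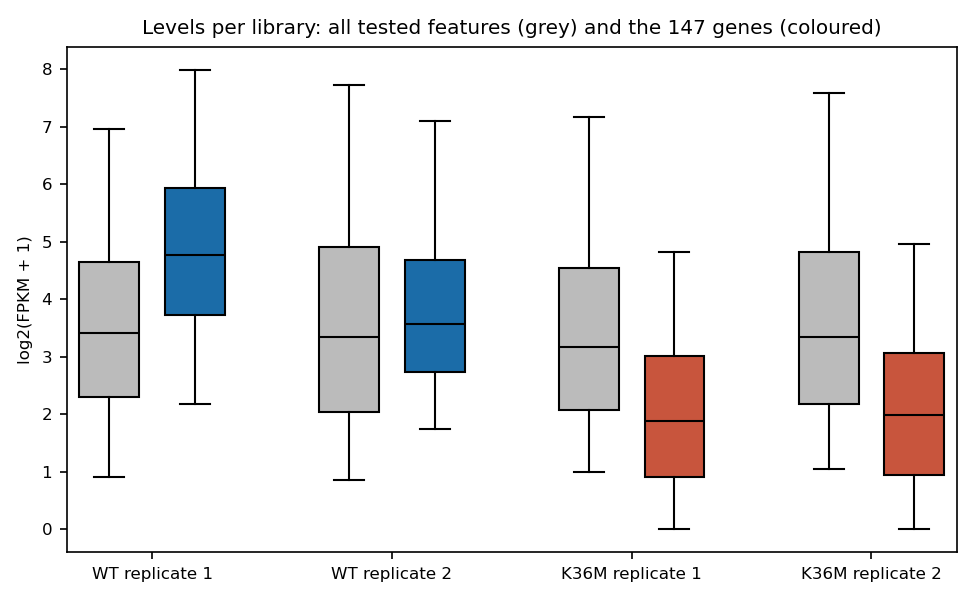
Levels on the log2(FPKM + 1) scale in each library, for all tested features (grey) and for the 147 genes (blue in WT, red in K36M). Boxes span the quartiles with the median as a line, and whiskers run from the 5 to the 95 percentile. The medians of the 147 genes lie above the grey medians most clearly in WT replicate 1 and below them in both K36M libraries, an order that the rule favours.

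The 2 WT libraries differed from each other in more of these genes than the 2 K36M libraries did. In 140 of 147 genes, or 95.2%, the K36M libraries were within 1 log2 unit of each other, close to the 92.2% of all tested features, and the median absolute difference was 0.19, against 0.34 over all tested features. The rule holds the K36M values low, and the log2(FPKM + 1) scale narrows differences between low values. Nothing is therefore read from the closeness of the K36M libraries or from its contrast with WT. The WT libraries were within 1 log2 unit in 70 genes, or 47.6%, against 66.1% of all tested features. In 74 genes WT replicate 1 was higher by at least 1. That share of 50.3% compares with 15.3% of all tested features. WT replicate 2 was higher by at least 1 in 3 genes, AT4G08345, AT3G16670 and AT5G05060, against 18.6% of all tested features. Within replicate number 1 the median difference, K36M minus WT, was -2.71 and within replicate number 2 it was -1.46. For the 70 genes with even WT libraries these medians were -1.76 and -1.48, and for the 74 with the higher WT replicate 1 they were -3.48 and -1.44. The split by the WT libraries and the threshold of the rule act on these medians directly, so nothing is read from them. That library also stood apart in its markers. Its 6 epidermis markers summed to 925 FPKM, against 4141 in WT replicate 2 and 2915 and 3110 in K36M, and its 6 guard cell markers to 2851 FPKM, against 905, 752 and 763. Single genes made up most of both sums, LTP1 with 842 and 3589 FPKM in WT and TGG1 with 2812 and 891 FPKM. By gene, WT replicate 1 was below WT replicate 2 in 5 of 6 epidermis markers, PDF2 being the exception, and above it in 6 of 6 guard cell markers. Across all tested features it was above in 46.5%. Some of these differences were small, as in ATML1 with 13.5 and 20.1 FPKM and HT1 with 3.9 and 2.1 FPKM in WT. The part of these markers in the values of the 147 genes was not tested.

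A comparison with limma over all features called 2 as lower in K36M, or 0.0113% of those tested, and 5 as higher, or 0.0282%. The lower ones were both among the 147. They were AT4G08345 and AT1G74929, and since the rule used the same contrast nothing is read from this count. In simulated data limma recovered 0.4% of genes changed by 2 log2 units, so few calls do not show that few genes changed. Membership also depended on how libraries were scaled. With the libraries scaled to the same median 121 of the 147 kept a gap of at least 1, and with equal FPKM sums without AT2G01021 54 did. In both cases the WT and K36M values of all 147 did not overlap. The gap that the rule requires is larger than these scalings could close, so nothing is read from this. Of all tested features as deposited, 19.3% had K36M below WT without overlap and 12.1% had K36M above WT. These shares were 14.8% and 16.3% with the same median, and 9.06% and 17.35% with equal sums.

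The genes with the largest gaps were small or non-coding ones read at 0 in both K36M libraries. AT4G08345, a leucine transfer RNA gene, had 65.7 and 137 FPKM in WT and was listed at 0 in both K36M libraries. AT1G74929, a model spanning 102 bp, had 37.3 and 60.3 FPKM in WT and was also listed at 0 in K36M. The protein-coding gene AT4G21950 was the most even of these, at 16.6 and 16.9 FPKM in WT and at 0 in K36M. Of the 147 genes, 7 were at 0 in both K36M libraries, against 66 of 17738 tested features. Such genes pass the mean filter only through WT and the rule favours them, so nothing is read from this count. The other 4 of the 7 were the pseudogenes AT3G48130 (RSU1) and AT3G04717, the gene AT5G05598 and the microRNA gene MIR838. Each had WT values between 2.01 and 6.53 FPKM. A 0 in this table does not show absence, since the 271 features of the plastid and mitochondrial genomes also have values of 0 throughout. AT1G74929 overlaps ORA47 (AT1G74930), which had 0.65 and 7.73 FPKM in WT against 18.3 and 7.52 FPKM in K36M. MIR838 lies within the span of DCL1, the nuclease that makes microRNAs, which had 6.55 and 2.67 FPKM in WT against 2.13 and 1.93 FPKM in K36M. The values of MIR838 and of DCL1 cannot be told apart where reads cover both.

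**Figure D2:**
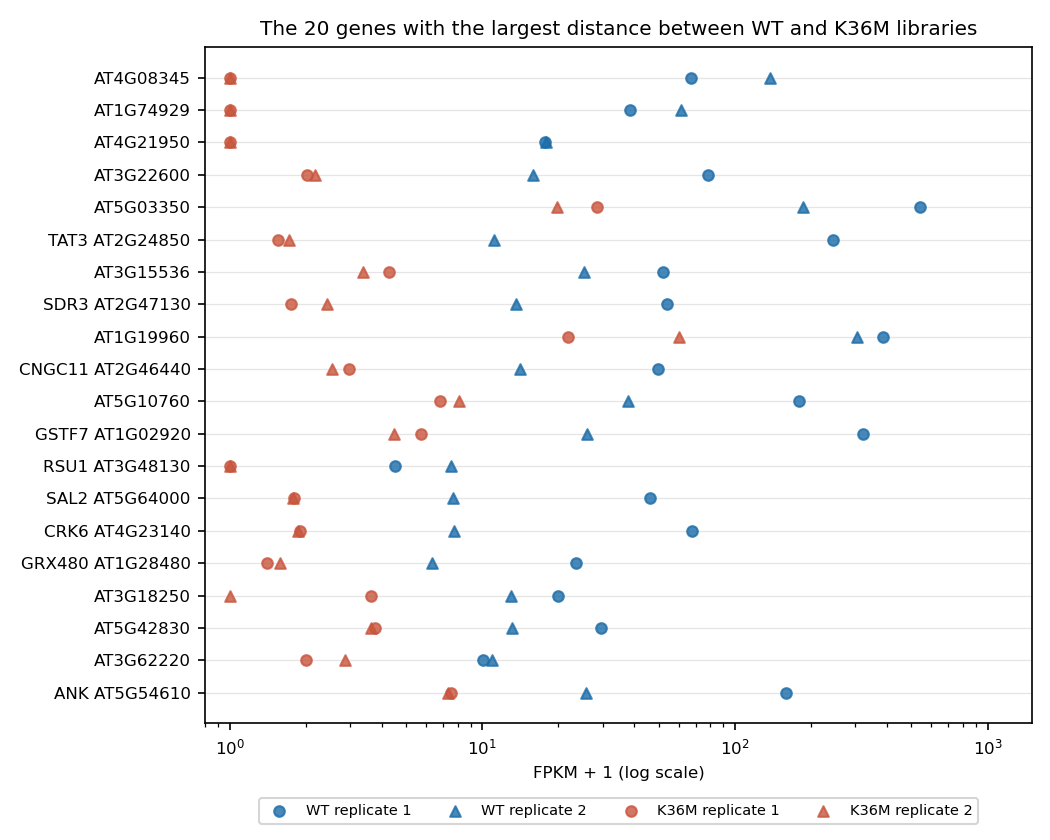
FPKM + 1 on a log axis in the 4 libraries, for the 20 genes with the largest gaps among those with a WT mean of at least 5 FPKM. Circles are replicate 1 and triangles replicate 2, blue for WT and red for K36M. AT4G21950 has nearly equal WT values, while TAT3 and GSTF7 have a WT replicate 1 far above WT replicate 2.

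Receptors at the cell surface were the group with the widest split between the WT libraries. The 6 genes placed in this group were CRK6, RLP23, RLP41, WAK1 and the lectin receptor kinases LecRK-IV.1 (AT2G37710) and LecRK-IV.4 (AT4G02420). A further 64 protein-coding genes with no name were not sorted by role, so the group may be incomplete. CRK6, a cysteine-rich receptor-like kinase, had 66.5 and 6.74 FPKM in WT against 0.895 and 0.856 FPKM in K36M. RLP23, the receptor-like protein that recognises a peptide common to many microbial toxins, had 76.1 and 6.89 FPKM against 1.18 and 1.56 FPKM. WAK1, a kinase bound to cell wall pectin, had 232 and 24.6 FPKM against 5.88 and 7.58 FPKM. In each of these 3 genes WT replicate 1 was about an order of magnitude above WT replicate 2, which was itself above both K36M libraries. RLP41 had 76.6 and 4.52 FPKM in WT against 0.996 and 1.12 FPKM in K36M. LecRK-IV.4 was the most even of the 6, at 36.8 and 21.3 FPKM in WT against 9.07 and 8.48 FPKM in K36M. The median of WT replicate 1 minus WT replicate 2 over the 6 was 3.16 log2 units, against -0.08 over all tested features. K36M minus WT had a median of -5.12 within replicate number 1 and -1.48 within replicate number 2.

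Inside the cell, 3 kinases of mitogen-activated cascades and an ion channel met the rule. MAPKKK5, which links chitin receptors to the cascade, had 23.4 and 12.8 FPKM in WT against 3.68 and 3.33 FPKM in K36M. MEKK3 had 44.2 and 13.7 FPKM against 4.19 and 5.66 FPKM. MPK11, a kinase at the end of such a cascade, had 30.8 and 2.72 FPKM against 0.79 and 0.512 FPKM. CNGC11, a cation channel of the cyclic nucleotide-gated family, had 48.5 and 13.1 FPKM in WT against 1.96 and 1.55 FPKM in K36M, the largest gap of the 4 at 2.25. WT replicate 1 was the highest library for all 4.

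Genes of salicylic acid breakdown and of immune regulation were placed in a group of 14. The role groups were drawn after the values were seen, and their shares over all tested features were not counted. Nothing is therefore read from the sizes of the groups. DMR6, a hydroxylase that breaks salicylic acid down, had 260 and 54.1 FPKM in WT against 17.7 and 18 FPKM in K36M. UGT74F2, which joins glucose to salicylic acid, had 14.4 and 24.1 FPKM against 1.46 and 4.85 FPKM. UGT74F2 was the only 1 of the 14 with WT replicate 2 as the higher WT library, and its neighbour in the family, UGT74F1, was at 0.441 and 0.294 FPKM in WT against 1.19 and 0.763 FPKM in K36M. WRKY51, a transcription factor, had 24.2 and 2.12 FPKM against 0.159 and 0.458 FPKM. WRKY38, of the same family, had 22.8 and 1.59 FPKM against 0.276 and 0.281 FPKM. GRX480, a glutaredoxin that binds TGA transcription factors, had 22.5 and 5.34 FPKM in WT against 0.408 and 0.577 FPKM in K36M. NUDT6, a nudix hydrolase, had 129 and 11 FPKM against 3.07 and 3.72 FPKM. AED1 (AT5G10760), named as an apoplastic protein that depends on EDS1, had 178 and 36.8 FPKM against 5.8 and 7.1 FPKM, the largest gap of the group at 2.22. BDA1 (AT5G54610, listed as ANK), an ankyrin repeat protein, had 159 and 24.7 FPKM against 6.51 and 6.31 FPKM. Apart from UGT74F2, whose K36M libraries also differed by more than 1 log2 unit, WT replicate 1 was the higher WT library in each of these genes.

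The group also held parts of secretion, the cell border and cell death. PEN3, a transporter at the plasma membrane that limits fungal entry, had 218 and 42.4 FPKM in WT against 15.5 and 16.2 FPKM in K36M. EXO70B2, a subunit of the exocyst that tethers secretory vesicles, had 38.4 and 7.48 FPKM against 2.68 and 3.08 FPKM. BG3, a glucanase related to PR2, had 12.6 and 1.26 FPKM against 0.0686 and 0 FPKM. The metacaspase MC2 had 9.57 and 2.16 FPKM in WT against 0.213 and 0.507 FPKM in K36M. CYP71A13, an enzyme of camalexin synthesis, was among the more even genes of the group, at 14.5 and 6.17 FPKM in WT against 2.1 and 1.6 FPKM in K36M. Its close copy CYP71A12 had a mean under the filter, at 2.91 and 0.396 FPKM in WT against 0 and 0.0771 FPKM in K36M. TRX5, a thioredoxin, had the smallest gap of all 147 genes, with 114 and 32.3 FPKM against 15.6 and 13.9 FPKM. Over the 14 genes the median of WT replicate 1 minus WT replicate 2 was 2.25 log2 units. K36M minus WT had a median of -3.77 within replicate number 1 and -1.35 within replicate number 2.

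**Figure D3:**
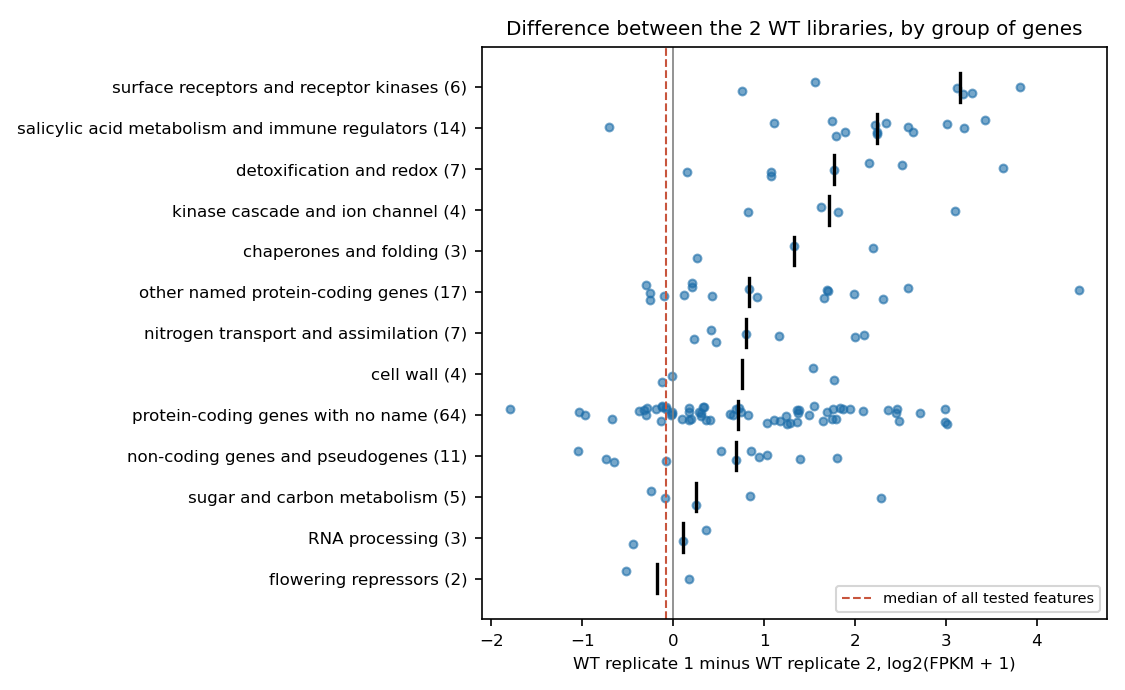
Difference between WT replicate 1 and WT replicate 2 on the log2(FPKM + 1) scale for each of the 147 genes (points), by group, with the number of genes in brackets and the group median as a black bar. The red dashed line is the median of all tested features, -0.08. The medians of receptors and immune regulators, 3.16 and 2.25, lie furthest to the right, and those of flowering repressors, RNA processing and sugar and carbon genes, -0.17, 0.11 and 0.25, lie near 0, with single genes of most groups away from their median.

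Detoxification and redox genes numbered 7, and WT replicate 1 was the higher WT library in all of them. GSTF7, a glutathione transferase, had 320 and 24.9 FPKM in WT against 4.72 and 3.49 FPKM in K36M. Its close copy GSTF6 had 470 and 47.4 FPKM in WT against 40.4 and 47.5 FPKM in K36M, so the K36M values overlapped WT there. How reads were shared between such copies is not given in the sources used here. UGT73B2, a glucosyltransferase of flavonols, had 30.9 and 6.16 FPKM against 1.28 and 1.48 FPKM. CYP81D8, a cytochrome P450, had 25.5 and 6.76 FPKM against 1.7 and 2.43 FPKM. ALF5, an efflux protein, was the 1 gene of the 7 with WT libraries within 1 log2 unit, at 9.12 and 8.09 FPKM in WT against 2.86 and 2.62 FPKM in K36M. The other members were the transporter ABCC4, the methionine sulfoxide reductase MSRB8 and the malonyltransferase PMAT1.

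Nitrogen transport and assimilation was represented by 7 genes, with smaller differences between the WT libraries. AMT1;1, an ammonium transporter, had 194 and 145 FPKM in WT against 48.6 and 38.8 FPKM in K36M. AMT2, a second ammonium transporter, had 25.7 and 14.3 FPKM against 4.59 and 6.49 FPKM. DUR3, a urea transporter, had 23.5 and 9.91 FPKM against 2.53 and 2.36 FPKM. NRT3.1 (AT5G50200, listed as WR3), the partner protein of high-affinity nitrate transporters, had 59.6 and 42.9 FPKM in WT against 20 and 15.3 FPKM in K36M. LHT1, an amino acid transporter, had 48.5 and 11.4 FPKM against 3.79 and 4.96 FPKM. GLN1;1 (AT5G37600), a cytosolic glutamine synthetase, had 203 and 46.6 FPKM against 17.7 and 18.9 FPKM. The ubiquitin ligase ATL31 (AT5G27420, listed as CNI1), known for the response to the balance of carbon and nitrogen, had 21.8 and 18.5 FPKM in WT against 4.98 and 5.69 FPKM in K36M. WT replicate 1 exceeded WT replicate 2 by under 1 log2 unit in 4 of the 7 and by more in DUR3, LHT1 and GLN1;1. The median difference, K36M minus WT, was -2.25 within replicate number 1 and -1.43 within replicate number 2.

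Sugar and carbon genes were more even still. PMT5, a polyol and sugar transporter, had 35.9 and 38.3 FPKM in WT against 11.4 and 13.3 FPKM in K36M. DHS2, the entry enzyme of the shikimate pathway, had 107 and 90 FPKM against 38.9 and 43.6 FPKM. NADP-ME2, a malic enzyme of the cytosol, had 57.5 and 31.6 FPKM against 14.6 and 13.9 FPKM. The beta-glucosidase BGLU11 had 5.6 and 6.81 FPKM in WT against 1.32 and 1.97 FPKM in K36M. The hexose transporter STP13 (AT5G26340, listed as MSS1) differed from these, with 23.7 and 4.07 FPKM in WT against 1.15 and 1.34 FPKM in K36M.

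The flowering repressors MAF1 and MAF4, relatives of FLC, were among the genes with even WT values. MAF1 had 28.2 and 24.8 FPKM in WT against 3.12 and 7.93 FPKM in K36M, a gap of 1.53. MAF4 had 2.33 and 3.78 FPKM against 0.308 and 0.525 FPKM, a gap of 1.13. In MAF1 the 2 K36M libraries themselves differed by more than 1 log2 unit, K36M replicate 1 being the lower. With EXPA8, an expansin that loosens cell walls, at 14 and 14.2 FPKM in WT against 6.37 and 3.68 FPKM in K36M, these were 3 of 7 tested genes of a list known to depend on SDG8. In that list 5 of 7 genes had both K36M values below both WT values, against 19.3% of all tested features, and the median difference was -1.37, against -0.05. Among the 5, MAF3 and MAF5 were barely without overlap, with gaps of 0.025 each. MAF2 and LAZ5 overlapped, MAF2 with 23 and 7.26 FPKM in WT against 4.57 and 8.04 FPKM in K36M. FLC, under the filter, had 0.0894 and 2.6 FPKM in WT against 0.305 and 1.01 FPKM in K36M. The list was chosen with earlier results of these data known, so its count is no independent evidence.

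Cell wall genes beside EXPA8 were EXLB1, AGP5 and COBL5. EXLB1, an expansin-like protein, had 29.4 and 32 FPKM in WT against 6.94 and 10.8 FPKM in K36M. AGP5, an arabinogalactan protein, had 142 and 48.3 FPKM against 18.3 and 17.5 FPKM. COBL5, of the COBRA family, had 28.9 and 7.78 FPKM in WT against 2.55 and 3 FPKM in K36M. The 2 expansin-type genes were even between the WT libraries, and AGP5 and COBL5 were higher in WT replicate 1.

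Chaperones and RNA processing factors were few and mostly of modest gap. HSP70 (AT3G12580), a heat-inducible chaperone, had 21.3 and 17.63 FPKM in WT against 7.16 and 4.29 FPKM in K36M. Hsp70-2 had 99.9 and 39.2 FPKM against 16 and 13.3 FPKM, and the protein disulfide isomerase PDIL2-2 had 45.2 and 9.05 FPKM against 2.69 and 3.29 FPKM. The splicing factor RS31a had 6.99 and 9.84 FPKM in WT against 2.08 and 2.68 FPKM in K36M. HESO1, which adds uridines to unprotected small RNAs, had 11.3 and 8.54 FPKM against 3.63 and 2.36 FPKM. CPSF30, a subunit of the polyadenylation machinery, had 5.9 and 5.41 FPKM against 2.15 and 1.79 FPKM. The 3 RNA processing genes had WT libraries within 1 log2 unit of each other.

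Among the other named genes were the most abundant of the 147. ECS1 had 4774 and 5704 FPKM in WT against 1751 and 1962 FPKM in K36M. TGG2, a myrosinase that cleaves glucosinolates, had 1982 and 1113 FPKM in WT against 340 and 436 FPKM in K36M. TGG1, its relative and a guard cell marker here, had 2812 and 891 FPKM in WT against 732 and 746 FPKM in K36M, a smaller gap that missed the rule. TAT3, an aminotransferase induced by jasmonate, had the widest WT split of all 147 genes, with 244 and 10.1 FPKM in WT against 0.546 and 0.715 FPKM in K36M. SDR3, a short-chain dehydrogenase, had 53 and 12.6 FPKM against 0.741 and 1.43 FPKM. SAL2, a phosphatase, had 45.1 and 6.68 FPKM in WT against 0.803 and 0.785 FPKM in K36M. The lipid transfer protein LTPG5 (AT3G22600) had 77.4 and 14.8 FPKM against 1.01 and 1.17 FPKM, the largest gap of this group at 2.87. BHLH100, a transcription factor of the iron deficiency response, had 19.7 and 5.42 FPKM in WT against 1.88 and 0.218 FPKM in K36M. The rest had gaps between 1.01 and 1.19, such as the corepressor TPR3 with 7.67 and 6.5 FPKM in WT against 2.63 and 1.95 FPKM in K36M.

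A further 64 protein-coding genes carried no name in the RefSeq annotation of TAIR10.1 beyond their locus identifier. AT5G03350 had 541 and 184 FPKM in WT against 27.4 and 18.7 FPKM in K36M. AT1G19960 had 383 and 302 FPKM in WT, among the most even at that level, and 20.8 and 59 FPKM in K36M. AT2G41090 had 1792 and 491 FPKM in WT against 177 and 196 FPKM in K36M. In AT3G16670 WT replicate 2 was the higher, with 124 and 431 FPKM in WT against 43.4 and 40.5 FPKM in K36M. AT3G18250 had 18.9 and 11.9 FPKM in WT against 2.61 and 0 FPKM in K36M, AT5G42830 28.5 and 12.1 FPKM against 2.75 and 2.63 FPKM, and AT3G62220 9.02 and 9.89 FPKM against 1.01 and 1.87 FPKM. Over the 64 genes the median of WT replicate 1 minus WT replicate 2 was 0.71 log2 units, and 33 were within 1 log2 unit.

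The 11 non-coding genes and pseudogenes included AT3G15536, a non-coding RNA gene with 50.7 and 24.2 FPKM in WT against 3.28 and 2.36 FPKM in K36M. AT4G38552, a long non-coding RNA gene, had 57.9 and 21.4 FPKM in WT against 4.9 and 6.01 FPKM in K36M. It overlaps the protein-coding member AT4G38550, which had 38.7 and 11.7 FPKM in WT against 3.22 and 3.63 FPKM in K36M. Whether strand was used in counting is not given, so these 2 genes may share reads and count as 1 locus.

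All 147 were found in RefSeq, with a median gene span of 2068 bp against 2365 bp over 17482 tested features with a span. A span under 600 bp was had by 6.8% of the 147 and 2.41% of tested features, and a span of 5000 bp or more by 3.4% and 7.54%. Protein-coding genes were 92.5% of the 147 and 95.6% of tested features. Chromosomes 1 to 5 held 25.2%, 15%, 17%, 17% and 25.9% of the 147, against 26.2%, 15.4%, 20.1%, 15.2% and 23.1% of tested features. An annotated overlap with another gene was found for 29.3% of the 147 and 32.1% of tested features. Among 136 protein-coding genes, 5 had as their next protein-coding gene one that also met the rule, or 3.68% against 1.26% of tested protein-coding genes. These were YLS2 with AT3G51440, AT5G55450 with AT5G55460, and PCR2 beside PCR1, 1 of the genes left out by name. YLS2 had 37.7 and 10.9 FPKM against 4.41 and 4.45 FPKM, and AT3G51440 had 7.64 and 2.36 FPKM against 0.0696 and 0.218 FPKM. AT5G55450 had 253 and 45.4 FPKM in WT against 13 and 13.9 FPKM in K36M, and AT5G55460 had 82.4 and 15.3 FPKM against 3.43 and 4.08 FPKM. WT replicate 1 was the higher WT library in each of these genes, as in 78.2% of all 147 and 46.5% of all tested features.

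Gene lists of the same pathways showed how far the rule reached into them. Of 18 tested genes of salicylic acid synthesis and signalling none met the rule, although 10 had both K36M values below both WT values, against 19.3% of all tested features. ICS1, the synthase of the pathway, had 80.9 and 11.3 FPKM in WT against 6.84 and 7.16 FPKM in K36M, and EDS1 had 72.6 and 4.1 FPKM against 5.18 and 8.5 FPKM. The list's median difference, K36M minus WT, was -2.92 within replicate number 1 and -0.26 within replicate number 2. Of 16 tested cysteine-rich receptor-like kinases 13 had both K36M values below both WT values, and only CRK6 met the rule. CRK4 had 120 and 13 FPKM in WT against 6.67 and 6.69 FPKM in K36M, and CRK10 57 and 26.4 FPKM against 14.6 and 13.8 FPKM. The 16 pattern recognition receptors and partners gave 13 without overlap, with RLP23 and WAK1 meeting the rule, and the 14 WRKY factors gave 7, with WRKY38 and WRKY51 meeting it. In these lists WT replicate 1 was higher than WT replicate 2 by at least 1 log2 unit in 15 of 18, 16 of 16, 12 of 16 and 12 of 14 genes, against 15.3% of all tested features.

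Intracellular receptors of the NLR class and genes of protein folding in the endoplasmic reticulum held no gene that met the rule. Of 19 tested NLR genes 6 lay below WT without overlap, beside 19.3% of all tested features, and their median difference was -1.89 within replicate number 1 and 0.04 within replicate number 2. Of 13 folding genes 6 did, with medians of -3.24 and 0.03. CRT3, a calreticulin, had 322 and 32.4 FPKM in WT against 16.3 and 26.3 FPKM in K36M, and HSP90.7, the chaperone of that compartment, had 504 and 21.4 FPKM against 35.9 and 51.3 FPKM. The members differed in direction against WT replicate 2, HSP90.7 being higher and CRT3 lower in both K36M libraries.

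Iron deficiency genes gave 8 of 12 without overlap, beside 19.3% of all tested features, and their median difference was of like size within both replicate numbers, at -0.94 and -1.15. BHLH100 met the rule. Of its relatives, BHLH38 had 13.9 and 1.33 FPKM against 0.618 and 0.807 FPKM, and BHLH39 had 10.3 and 1.47 FPKM against 0.343 and 0 FPKM. FRO3, an iron reductase, had 24.2 and 14.6 FPKM against 7.43 and 5.02 FPKM. PYE, OPT3, NAS4 and FER1 overlapped, FER1 with 35 and 102 FPKM in WT against 82.2 and 86.6 FPKM in K36M. In 4 of the 12, BHLH38, BHLH39 and BHLH100 among them, WT replicate 1 exceeded WT replicate 2 by at least 1 log2 unit. That compares with 15.3% of all tested features. Jasmonate and defensin genes gave 8 of 17 without overlap and TAT3 as the 1 gene that met the rule, and heat shock genes 5 of 9 with HSP70. Of 2 tested camalexin genes both were without overlap. CYP71A13 met the rule, while PAD3, which makes camalexin in the last step, had 26.7 and 0.968 FPKM in WT against 0.0395 and 0.157 FPKM in K36M.

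**Figure D4:**
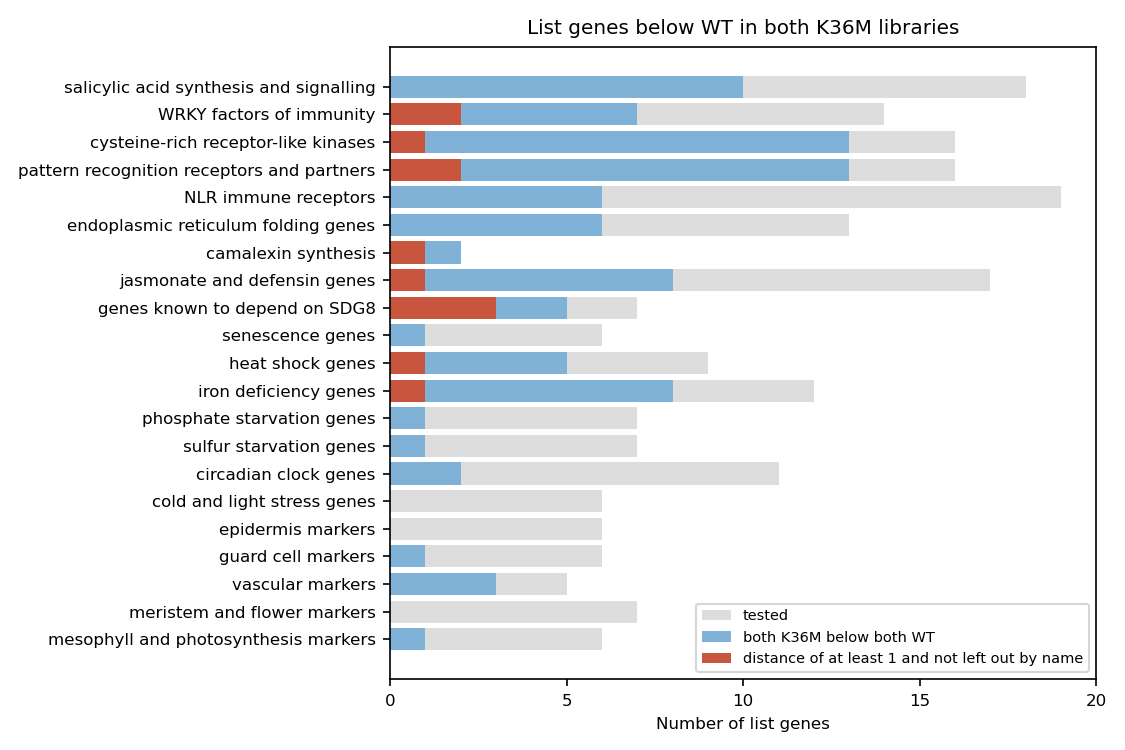
Number of genes per list: tested (grey), with both K36M values below both WT values (blue, drawn over grey), and meeting the rule of the 147 genes (red, drawn over blue). Lists of receptors and of iron deficiency have long blue bars and short red ones, and 3 of the 7 genes known to depend on SDG8 are red.

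Lists of other pathways and of cell type markers held none of the 147 genes. Without overlap below WT lay 1 of 6 senescence genes, 1 of 7 phosphate starvation genes, 1 of 7 sulfur starvation genes, 2 of 11 clock genes and 0 of 6 cold and light stress genes. Of markers, 0 of 6 for epidermis, 1 of 6 for guard cells, 3 of 5 for the vasculature, 0 of 7 for meristem and flower and 1 of 6 for mesophyll lay below WT without overlap. For the vascular markers the differences were small, as in SUC2, a sucrose transporter of the phloem, with 113 and 119 FPKM in WT against 101 and 87.5 FPKM in K36M. These counts stand beside 19.3% of all tested features.

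The threshold of the rule cut through a continuous range. Between gaps of 0.9 and 1 there were 47 tested features, and between 1 and 1.1 there were 37. Just inside were TRX5, PCR2, AT1G65484, AT4G31441 and AT3G21010, with gaps of 1.00, 1.01, 1.01, 1.01 and 1.01. PCR2 had 9.77 and 7.01 FPKM in WT against 1.77 and 2.98 FPKM in K36M. Just outside were CID10, NUDT5, KEG, RING1 and AT5G18362, with gaps of 0.99, 0.99, 0.98, 0.98 and 0.98. RING1, a ubiquitin ligase, had 168 and 43.6 FPKM in WT against 21.6 and 17.7 FPKM in K36M, and NUDT5, a relative of NUDT6, 18.4 and 4.32 FPKM against 1.21 and 1.68 FPKM. Values on both sides of the threshold were thus alike.

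**Figure D5:**
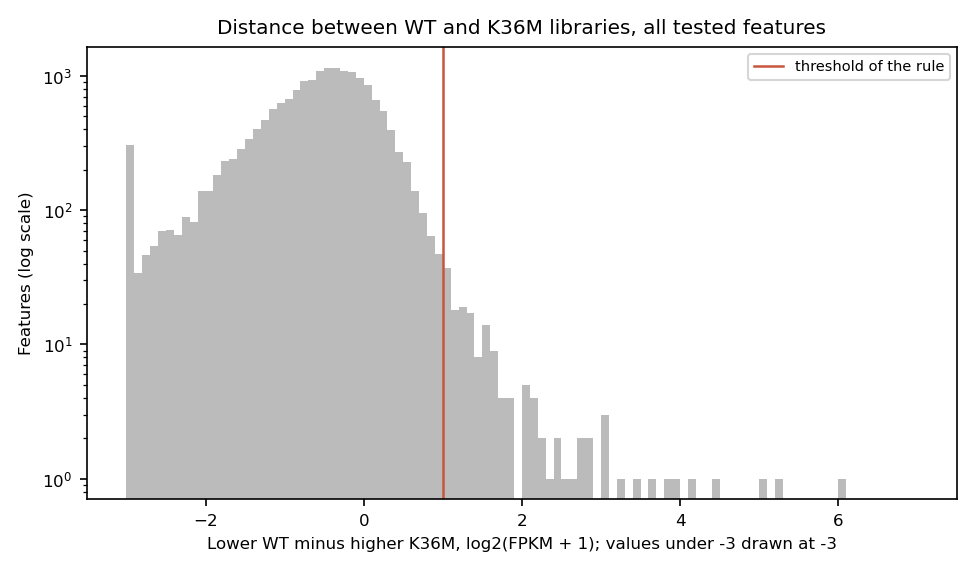
Number of tested features (log scale) by the gap, the lower WT value minus the higher K36M value on log2(FPKM + 1), in bins of 0.1; values under -3 are drawn at -3. The red line marks the threshold of 1, which lies on a smooth slope, and the 163 features to its right include the 16 left out by name.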

How the data were processed

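The authors deposited FPKM for 33302 features in 4 RNA libraries, 2 per group, in 1 table without a header, mapped to libraries through the names quoted in the labels. Library preparation kept strand (TruSeq Stranded mRNA), per the labels' protocols. TAIR10, Bowtie2 and bedtools appear in the submitters' processing notes with no role given. Which program computed FPKM is not given in the sources used here, and the depth per library is unknown, so precision is given by the replicates alone. Of the features, 233 were several genes joined under 1 value and 7513 were at 0 throughout.

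Values were analysed as log2(FPKM + 1), which understates changes of low genes, in 17738 features whose mean reached 1 FPKM. Names, gene types and spans came from RefSeq for TAIR10.1. The genes, their groups by role and the gene lists were chosen with earlier results of these data known, and the role groups after the values were seen. The background comparison used limma 3.58.1 in R 4.3.3 (mean-variance trend, two-sided, Benjamini-Hochberg over all tested features, threshold 0.05). On simulated data it recovered 0.4% of genes changed by 2 log2 units, 59.2% at 4 and 97.2% at 8. Its p-values rest on the spread between 2 libraries per group, drawn for each gene towards the mean-variance trend over all tested features. Other steps ran in Python 3.11.15 with pandas 2.3.3 and matplotlib 3.10.9.

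Named genes were, by rule, those called by limma, the 20 largest gaps with a WT mean of at least 5 FPKM, up to 4 per list, up to 10 at 0 in both K36M libraries, neighbouring members, and the 5 on each side of the threshold. Other genes with a known role, list genes outside the 147 and unnamed abundant genes were chosen after their values were seen. Each library left out in turn, other pseudocounts, filters, scalings, thresholds and a replicate block were tried. After seeing the data, a correction for the trend with gene span within each library was added. Promoter motifs and sequences were not analysed here.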

Additional observations from a re-analysis of the deposited data

How the results depend on the processing

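The set of 147 genes numbered 285 with a pseudocount of 0.1, 61 with equal FPKM sums without AT2G01021 (54 of the 147 among them), 718 with a gap of at least 0.5 and 17 with a gap of at least 2. With each library left out in turn fewer values had to be separated, and all 147 stayed in the set. It numbered 280 without K36M replicate 1 and 381 without K36M replicate 2. Without WT replicate 1 it numbered 417, and without WT replicate 2, with WT replicate 1 as the only WT library, 1672. The cause of the spread of these counts was not tested. The median gap of the 147 was 1.35 to 2.59, the highest without WT replicate 2. Paired by replicate number, as a replicate block, 229 genes differed by at least 1 within both numbers. The numbers are shared labels only, and the deviations of same-numbered libraries correlated across genes at 0.128. The other settings kept the number of genes within 1.5 times of 147. With quantile normalization 112 of the 147 were kept, and with the gene span trend removed 132. Over 42 named genes no gap changed sign under the 7 settings tried. Removal of the gene span trend was the only setting that could have changed a sign, given the rule. Of the gaps under these settings, 67 moved by more than the replicate SD and 227 did not, and 28 of the 67 were without WT replicate 2.

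limma called 2 features lower and 5 higher. With the replicate block it called 0 and 0 (794 at an unadjusted p under 0.05) and with no filter 0 and 0 (1175). With each library left out in turn it called 0 to 510 lower and 0 to 192 higher, 0 in each direction without either K36M library (216 and 151 at an unadjusted p under 0.05), 12 lower and 1 higher without WT replicate 1, and 510 and 192 without WT replicate 2, 84 of the 510 being among the 147. The calls without WT replicate 2 were made over 17738 tested features. The rule used the same contrast, so nothing is read from the overlap of 84 genes. The cause of the changes between settings was not tested. A group left with 1 library is assumed to vary like the other.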

Other observations

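In the opposite direction 116 tested features, or 0.654%, had a lower K36M value above the higher WT value by at least 1 log2 unit. Among the gene lists these were AP3, PI and VSP1. VSP1, a storage protein of the jasmonate response, had 4.6 and 8.77 FPKM in WT against 25.2 and 30.3 FPKM in K36M, while TAT3 of the same list had 244 and 10.1 FPKM against 0.546 and 0.715 FPKM. Of 7 tested meristem and flower markers 6 had both K36M values above both WT values, against 12.1% of all tested features.

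The 16 genes left out by name had a median gap of 3.08, and in 11 of them WT replicate 1 exceeded WT replicate 2 by at least 1 log2 unit. Those with WT values closer together included CAX3, a calcium exchanger, with 16.2 and 15.5 FPKM in WT against 2.79 and 2.5 FPKM in K36M, and SAG13 with 42 and 31 FPKM against 0.997 and 2.79 FPKM.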
